A study of Mus musculus with 5 samples.

Results

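The genes described here encode the proteins of the mitochondrial ribosome, found on a mouse expression array as the genes whose symbol is Mrpl or Mrps followed by a number and at most 1 letter. The rule used symbols alone and no measured value. It found 77 of the 19938 measured genes (85 of 21789 probe sets), 48 named as large-subunit (Mrpl) and 29 as small-subunit (Mrps) proteins. Each gene was described by its brightest probe set, since 8 of the genes had more than 1. Hearts of C57BL/6 mice, bought at 8 weeks of age, were transplanted into recipients of the same strain, at a site other than that of the recipient's own heart, and RNA of the graft tissue was hybridised to 1 array per graft. In the I/R group (3 grafts, numbered 2553, 2555 and 2557) the donor heart was kept in University of Wisconsin solution at 4 °C for 18 h before it was implanted. In the non-I/R group (2 grafts, 2554 and 2556) it was implanted without storage. No gene was altered in either group, and both groups had been through removal, implantation and reperfusion, so that the comparison addresses what prolonged cold storage adds to transplantation. The labels give harvest at 24 h after transplantation, whereas the study's account of the arrays gives a later day, and the storage step stands in the treatment label of all 5 grafts although the source label of the non-I/R grafts denies it.

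The mitochondrial ribosome translates the few messages of the mitochondrial genome, all of which encode membrane subunits of the respiratory chain and ATP synthase. Its rRNAs are made in the mitochondrion, while its proteins are encoded in the nucleus, made in the cytosol and imported. Part of them descend from bacterial ribosomal proteins and the others were added in mitochondria. Heart muscle, which is dense with mitochondria, depends on this supply, and inherited defects of several of these proteins cause cardiomyopathy in humans.

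Signals are log2 values made by RMA, which removes background, equalises the arrays' distributions and gives 1 value for the probes of each set. A difference of 1 is therefore 2-fold, and signals of different genes are not compared. The array medians lay between 6.58 and 6.65 and the members' signals between 7.33 and 11.2. Cardiomyocyte markers were high in all 5 grafts, with a mean signal of 12.25, 12.18 and 12.50 over 10 genes in I/R grafts 2553, 2555 and 2557, against 12.93 and 12.83 in non-I/R grafts 2554 and 2556. The mean of the 4 atrial markers split the grafts across the groups, at 8.41, 10.53 and 9.39 in the I/R grafts and 10.67 and 7.80 in the non-I/R grafts. It was thus highest in grafts 2555 and 2554. One of the 4, Nppa, followed the groups instead, with 12.13, 12.56 and 12.56 in I/R grafts, against 12.95 and 12.61 in non-I/R grafts. Graft 2553 had the highest mean signal of 7 cell cycle genes, 8.28, against 7.03 to 7.47 in the other 4 grafts.

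Promoters of this gene family are known for binding sites of 3 factors, NRF1, the ETS factor GABP and YY1, which is why the sites are shown here before the expression values. In 74 RefSeq promoters of 68 member genes (GRCm38.p6, 250 bases before to 50 after the start), CCGGAAGT, a GABP-type ETS motif, was present in 12 (16.2%), against 3.89% of 32851 promoters of all genes. GCGCANGC, an NRF1-type motif, was present in 22 (29.7%), against 9.95% of all. AAGATGGC, a YY1-type motif, was present in 12 (16.2%), against 2.75% of all. Both strands were searched and the 3 motifs do not share letters that would make a match of 1 a match of another. At least 1 of the 3 was in 40 of the 74 promoters (54.1%), against 15.2% of all. Of the 13 members that were lower in I/R at an unadjusted p under 0.05, described below, 7 carried a motif, as did 32 of the 55 other members with a promoter. At least 1 example of each motif is printed for genes whose values are given further on, 5′ to 3′ on the strand of the gene with the motif in capitals. A match is a description of the letters, and binding was not measured.
Mrpl42, minus strand, chr10:95501903-95501932, YY1-type motif after the start: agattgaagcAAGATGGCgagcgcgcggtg
Mrpl36, plus strand, chr13:73330909-73331008, YY1-type motif on the other strand: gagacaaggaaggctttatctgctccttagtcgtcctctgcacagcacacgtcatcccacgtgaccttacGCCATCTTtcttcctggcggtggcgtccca
Mrpl51, plus strand, chr6:125192100-125192199, ETS-type motif: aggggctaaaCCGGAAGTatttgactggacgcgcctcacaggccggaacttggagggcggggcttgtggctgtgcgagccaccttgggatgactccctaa
Mrpl12, plus strand, chr11:120484537-120484636, NRF1-type motif on the other strand: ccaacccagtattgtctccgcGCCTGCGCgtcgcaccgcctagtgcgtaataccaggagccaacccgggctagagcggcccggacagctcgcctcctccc
Mrps18b, minus strand, chr17:35916591-35916690, NRF1-type motif on the other strand: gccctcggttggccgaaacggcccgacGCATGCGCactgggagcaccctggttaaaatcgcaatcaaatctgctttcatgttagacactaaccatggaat
Of the 12 genes with the YY1-type motif, 8 held it in the sense direction after the start, as Mrpl42 does, and 4 held it in the other direction before the start, as Mrpl36 does.

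Most mitochondrial ribosomal protein genes had a slightly lower mean signal in I/R grafts than in non-I/R grafts. Means were lower for 67 of the 77 genes and higher for 10, and the median log2 fold change was -0.17 (range -0.87 to 0.49), against -0.0079 over all 21789 probe sets tested. In whole tissue, fewer cells of a type and less RNA per cell cannot be told apart. At an unadjusted p under 0.05 in limma, the threshold of the methods, 13 members (16.9%) were lower in I/R, where 7.35% of all probe sets were, and 0 were higher, where 7.64% of all were. The share of all depends on the probe sets taken. In a fit to probe sets with a mean signal of at least 6, 10.3% were lower, against 11 of the 77 members. In a fit to those with no values tied between arrays, 15.7% were lower, against 13 of the 55 members left. No member differed 2-fold, while 1.30% of all probe sets were at least 2-fold lower and 0.597% at least 2-fold higher. All 3 I/R grafts lay below both non-I/R grafts in 31 members (40.3%), against 16.2% of all probe sets, and above both in 1 member, Mrps18b, against 15.8% of all. After Benjamini-Hochberg adjustment over all probe sets limma called 0 members, and 0 probe sets in all, with a smallest adjusted p of 0.284 among the members. With 3 grafts against 2, the smallest p that an exact two-sided permutation test can give for a single gene is 0.1. Without I/R graft 2557 the count of 13 fell to 3 of the 77 members, where 4.78% of all probe sets were lower. The members then no longer exceeded the share of all. Without I/R graft 2553 or 2555 the count was 11, where 6.77% and 5.76% of all were lower. The count also fell without non-I/R graft 2554 or 2556, which leaves 1 graft in that group. The members' share was near that of all probe sets without graft 2554 and below it without graft 2556. The median log2 fold change was -0.12 without graft 2554 and -0.19 without graft 2556. It stayed between -0.21 and -0.11 when each graft was left out in turn.

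**Figure D1:**
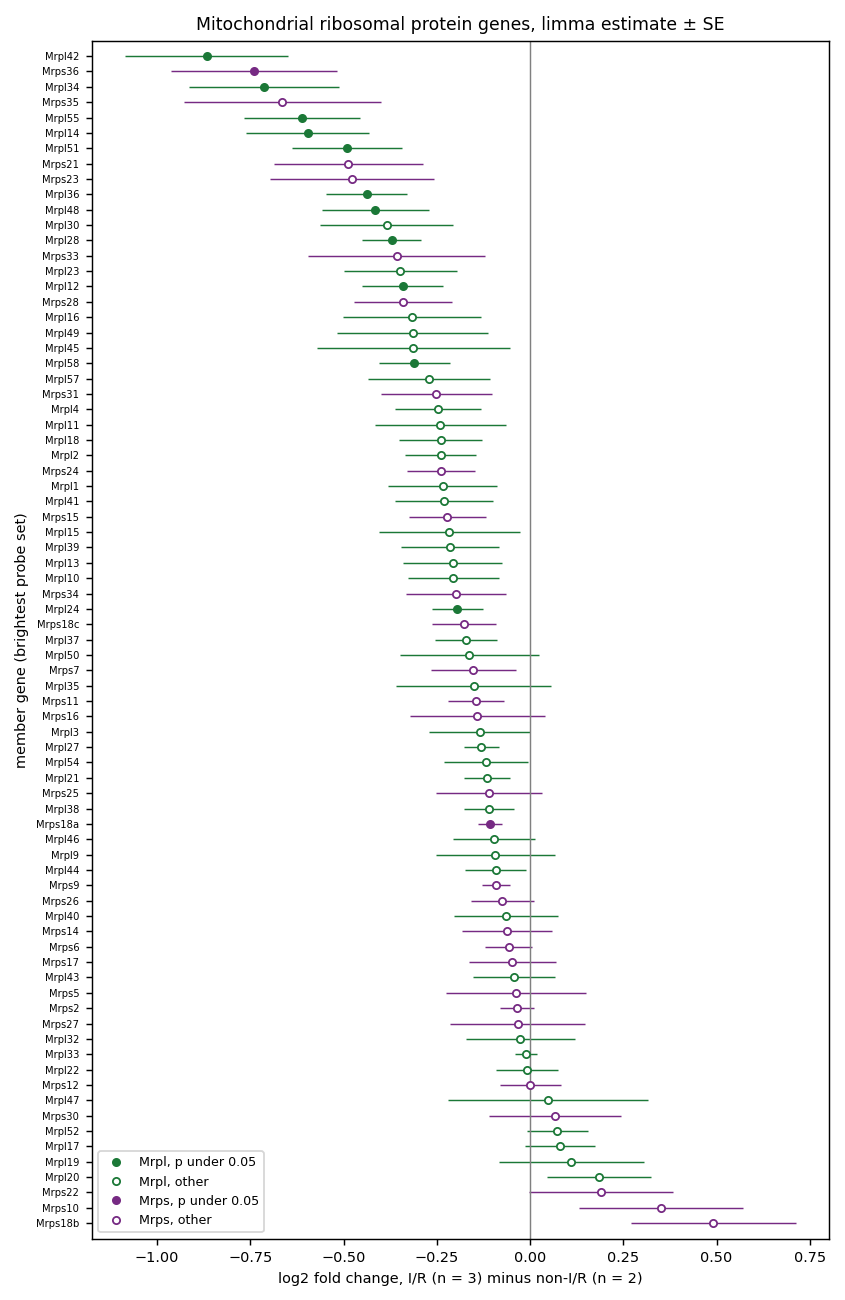
Log2 fold change (I/R minus non-I/R, x axis) of each of the 77 member genes (y axis, ordered by size), with limma's standard error as a horizontal bar; 3 I/R and 2 non-I/R grafts. Filled points are the 13 genes at an unadjusted p under 0.05, all of them to the left of 0, and 67 points in all lie to the left of 0.

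Of the 13 genes called lower, 12 encode large-subunit proteins, and the other, Mrps36, is described further on. Mrpl42, which encodes a protein that bacteria lack, had signals of 9.14, 8.49 and 8.76 in I/R grafts 2553, 2555 and 2557, against 9.71 and 9.62 in non-I/R grafts 2554 and 2556. That is a log2 fold change of -0.87 (SE 0.22, unadjusted p = 0.018), or 1.82-fold lower in I/R, the largest of the family. The groups did not overlap in this gene, although the I/R grafts spread more widely than the non-I/R grafts. Mrpl34, the counterpart of bacterial L34, had 9.56, 9.01 and 9.30 in I/R grafts, against 10.13 and 9.87 in non-I/R grafts (-0.71, SE 0.20, unadjusted p = 0.026). Mrpl55, placed in the large subunit at the position of bacterial L31, had 8.98, 8.59 and 8.61 in I/R grafts, against 9.42 and 9.26 in non-I/R grafts (-0.61, SE 0.16, unadjusted p = 0.019). In both genes, too, every I/R graft lay below every non-I/R graft, with graft 2555 lowest.

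Mrpl14 is the counterpart of bacterial L14, which faces the small subunit. It had 8.81, 8.40 and 8.68 in I/R grafts, against 9.35 and 9.10 in non-I/R grafts (-0.60, SE 0.17, unadjusted p = 0.024). Mrpl36, the counterpart of the zinc-binding bacterial L36, had 9.50, 9.19 and 9.43 in I/R grafts, against 9.79 and 9.83 in non-I/R grafts (-0.44, SE 0.11, unadjusted p = 0.017), and here the non-I/R grafts lay within 0.05 of each other. Mrpl28, the counterpart of bacterial L28, had 8.68, 8.70 and 8.76 in I/R grafts, against 9.19 and 8.97 in non-I/R grafts (-0.37, SE 0.079, unadjusted p = 0.011). Its 3 I/R grafts nearly coincided. It had the smallest p of the members and was the only 1 of the 13 that kept an unadjusted p under 0.05 whichever single graft was left out. The other called large-subunit genes were Mrpl51 (-0.49), Mrpl48 (-0.42), Mrpl12 (-0.34), Mrpl58 (-0.31), Mrpl24 (-0.20) and Mrps18a (-0.11), with standard errors of 0.032 to 0.15. The p of Mrpl24 was 0.049 and that of Mrpl27, the nearest member outside the threshold, was 0.053, at log2 fold changes of -0.20 and -0.13, so that the line between called and not called does not follow the size of the difference.

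A probe set can also measure a near-identical copy of its gene elsewhere in the genome. The probe set numbers of 5 members (Mrpl27, Mrpl41, Mrpl48, Mrpl51 and Mrps33) lay among those of genes on another chromosome, so their values are uncertain. Without these 5, 11 genes were called lower and the median log2 fold change was -0.16. Mrpl51 has a second, dimmer probe set, whose number does not lie among those of another chromosome and which was not called. Its log2 fold change was -0.40 (unadjusted p = 0.116), against -0.49 (unadjusted p = 0.032) in the one used. In dimmer probe sets of the same kind Mrpl27 had 0.022, against -0.13 in the one used, and Mrps33 had -0.35, against -0.36. Mrpl41 also has a dimmer probe set, whose number does not lie among those of another chromosome. It had -0.13 (SE 0.024, unadjusted p = 0.0065), against -0.23 (unadjusted p = 0.157) in the one used. That p is below the 0.011 of Mrpl28, which is the smallest only among the brightest probe sets.

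**Figure D2:**
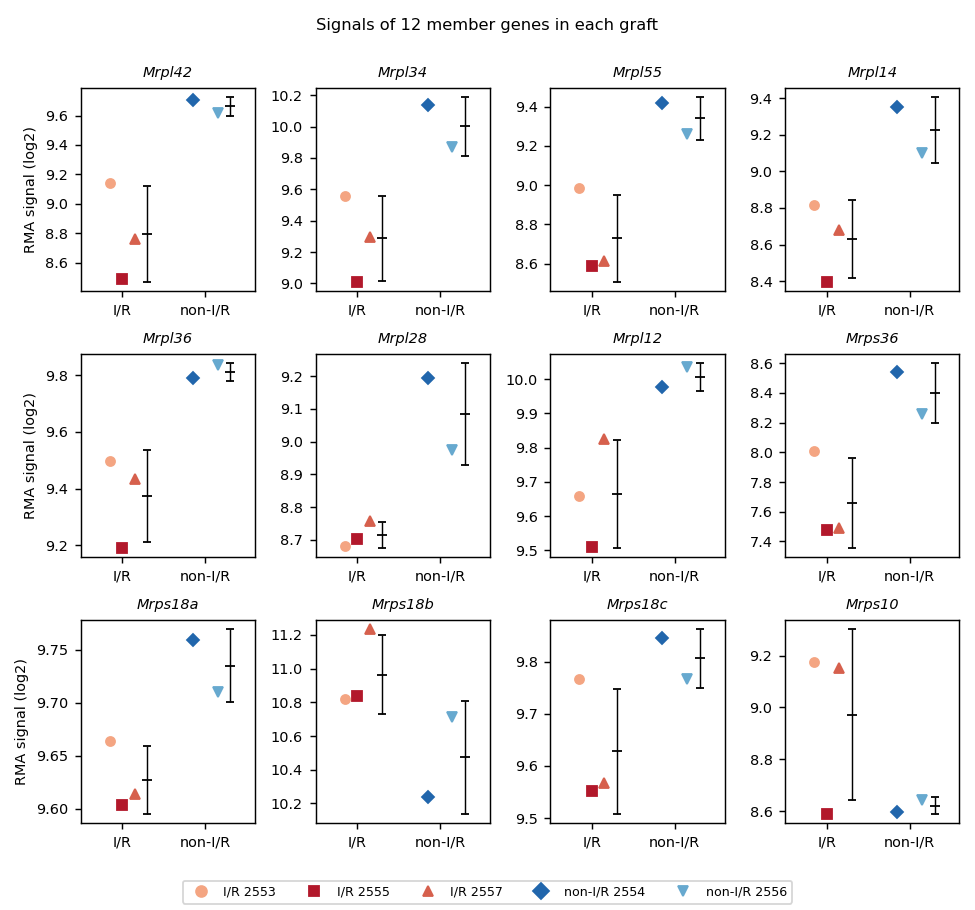
RMA signal (log2, y axis, a separate scale per gene that does not start at 0) of 12 member genes in each of the 3 I/R and 2 non-I/R grafts, with the group mean and SD as bars beside the points. In the 9 genes from Mrpl42 to Mrps18a every I/R graft lies below both non-I/R grafts, while Mrps18b runs the other way and Mrps10 splits the I/R group.

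The stalk of the large subunit, which recruits translation factors, is formed by Mrpl12 on a base of Mrpl10 and Mrpl11. Mrpl12, which in human cells also binds the mitochondrial RNA polymerase, fell in I/R, with 9.66, 9.51 and 9.83 in I/R grafts, against 9.98 and 10.04 in non-I/R grafts (-0.34, SE 0.11, unadjusted p = 0.036). Mrpl10 had a log2 fold change of -0.21 (SE 0.12, unadjusted p = 0.172) and Mrpl11 of -0.24 (SE 0.18, unadjusted p = 0.248), and neither passed the threshold. Mrpl58, which frees peptides from stalled ribosomes and is built into the large subunit, had 9.56, 9.32 and 9.55 in I/R grafts, against 9.84 and 9.73 in non-I/R grafts (-0.31, SE 0.096, unadjusted p = 0.034). Mrpl45, which ties the exit of the peptide tunnel to the inner membrane, had 8.93, 8.27 and 8.93 in I/R grafts, against 9.12 and 8.93 in non-I/R grafts. Its estimate of -0.31 was as large as that of Mrpl58, but it rested on graft 2555 and its interval ran from -1.05 to 0.42.

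Of 3 genes whose human counterparts are mutated in cardiomyopathy, none passed the threshold. Mrpl3, near the peptide-forming centre, had a log2 fold change of -0.14 (95% interval -0.52 to 0.25). Mrpl44, a large-subunit protein that bacteria lack, had -0.093 (-0.32 to 0.14). Mrps22, a small-subunit protein, had 0.19 (-0.35 to 0.73). Each interval includes 0. That of Mrpl3 also includes a fall of the size of that of Mrpl28, and that of Mrps22 includes a rise of that size but not a fall. Mrpl32, whose protein must be trimmed by a protease of the inner membrane before it is assembled, had -0.026 (-0.44 to 0.39).

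None of the genes for proteins of the small subunit passed the threshold with all 5 grafts. By present structures 50 of the members belong to the large subunit (Mrps18a and Mrps30 included) and 26 to the small one. The large-subunit genes had a median log2 fold change of -0.21 and 12 calls (24%), where 7.35% of all probe sets were called lower. The small-subunit genes had -0.13 and 0 calls, with 22 of the 26 means lower in I/R. All 3 I/R grafts lay below both non-I/R grafts in 21 large-subunit (42%) and 9 small-subunit genes (34.6%), against 16.2% of all probe sets. The difference between the subunits was not tested, and the split of calls rested on single grafts. Without I/R graft 2555 it was 9 large-subunit and 2 small-subunit genes lower (and 2 small-subunit genes higher), where 5.76% of all probe sets were lower. Without I/R graft 2557 it was 3 and 0 lower, where 4.78% of all were. With either non-I/R graft left out, 1 graft remains in that group. Large-subunit genes were then called lower about as often as all probe sets, and small-subunit genes were among the calls. The large differences of Mrps35 (-0.66, 95% interval -1.41 to 0.085), Mrps21 (-0.49, -1.05 to 0.079) and Mrps23 (-0.48, -1.10 to 0.15) had wide intervals. For Mrps35, a small-subunit protein without bacterial counterpart, the signals were 8.45, 7.79 and 8.33 in I/R grafts, against 9.04 and 8.67 in non-I/R grafts. Mrps23, of the same kind, had 10.57, 9.96 and 10.50 in I/R grafts, against 10.85 and 10.80 in non-I/R grafts. In both genes the groups did not overlap and the I/R spread came mainly from graft 2555. Without graft 2555 Mrps23 had a log2 fold change of -0.29 (SE 0.041, unadjusted p = 0.0083, adjusted p = 0.355).

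The decoding-site protein Mrps12 had 7.33, 7.56 and 7.38 in I/R grafts, against 7.42 and 7.42 in non-I/R grafts, a difference of 0.00 with an interval from -0.23 to 0.23. Mrps7, in the head of the small subunit, had -0.15 (unadjusted p = 0.260), and Mrps34, a small-subunit protein without bacterial counterpart, had -0.20 (unadjusted p = 0.214). The groups overlapped in all 3 genes. Splitting the family by descent gave like medians, -0.17 for 46 genes with a bacterial counterpart and -0.17 for 30 genes without one. Of these genes 7 (15.2%) and 5 (16.7%) were called lower, against 7.35% of all probe sets. These counts were 3 and 0 without I/R graft 2557, where 4.78% of all probe sets were lower. Both counts also fell with either non-I/R graft left out, which leaves 1 graft in that group. Without graft 2556 both shares were below that of all probe sets.

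Mrps36 carries a small-subunit symbol, but its protein is known as a subunit of the 2-oxoglutarate dehydrogenase complex of the citric acid cycle and is absent from structures of the ribosome. It fell in I/R, with 8.01, 7.48 and 7.49 in I/R grafts, against 8.54 and 8.26 in non-I/R grafts (-0.74, SE 0.22, unadjusted p = 0.031). Its second, dimmer probe set gave -0.81 (SE 0.23, unadjusted p = 0.028), but the number of that probe set lies among those of genes on another chromosome, so its value is uncertain. It was the second-largest fall under the symbol rule and 1 of only 2 calls under an Mrps symbol, and the other, Mrps18a, belongs to the large subunit.

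The 3 paralogs of bacterial S18 had estimates of both signs. Mrps18a, which sits in the large subunit, had 9.66, 9.60 and 9.61 in I/R grafts, against 9.76 and 9.71 in non-I/R grafts (-0.11, SE 0.032, unadjusted p = 0.030). Mrps18c, which takes the place of S18 in the small subunit, had 9.77, 9.55 and 9.57 in I/R grafts, against 9.85 and 9.77 in non-I/R grafts (-0.18, SE 0.085, unadjusted p = 0.109). Mrps18b, a small-subunit protein with a position of its own, had 10.82, 10.84 and 11.24 in I/R grafts, against 10.24 and 10.71 in non-I/R grafts. Its log2 fold change of 0.49 (SE 0.22, 95% interval -0.14 to 1.12, unadjusted p = 0.094) was the highest of the family and did not pass the threshold. All 3 I/R grafts lay above both non-I/R grafts for Mrps18b, below them for Mrps18a, and overlapped them for Mrps18c, and the difference between paralogs was not tested.

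At the upper end of the family, 5 members had a log2 fold change of 0.1 or above, Mrps18b, Mrps10, Mrps22, Mrpl20 and Mrpl19, and none passed the threshold. Mrps10, the counterpart of bacterial S10, had 9.17, 8.59 and 9.15 in I/R grafts, against 8.60 and 8.64 in non-I/R grafts (0.35, SE 0.22, unadjusted p = 0.188). Grafts 2553 and 2557 were high and graft 2555 lay at the non-I/R level. Without graft 2555 the log2 fold change was 0.54 (SE 0.027, unadjusted p = 0.00051, adjusted p = 0.337). A further 21 members lay within 0.1 of 0, among them Mrps30 at 0.066 and Mrpl47 at 0.048. Probe sets of a gene differed in sign for Mrpl47 (0.048 and -0.091) and Mrpl27 (-0.13 and 0.022), and no probe set of either passed the threshold. Between -0.3 and -0.1 lay 30 members, 28 of them not called, and at -0.3 or below lay 21, of which 10 were not called (Mrps35, Mrps21, Mrps23, Mrpl30, Mrps33, Mrpl23, Mrps28, Mrpl16, Mrpl49 and Mrpl45).

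One I/R graft was low across most of the family. Graft 2555 had the lowest signal of the 5 grafts in 64 of the 77 members, and it lay below both non-I/R grafts in 68. Graft 2557 lay below both in 45 and graft 2553 in 36. Relative to the mean of the other I/R grafts, graft 2555 had a median difference of -0.28 over the members (from -0.68 for Mrpl47 to 0.44 for Mrps16), and it was lower in 72. The mean of grafts 2553 and 2557 differed from the non-I/R mean by a median of -0.11 (from -0.71 for Mrpl42 to 0.55 for Mrps18b), and it was lower in 55. The median SD of a member within the I/R group was 0.18, 0.051 without graft 2555, and 0.083 within the non-I/R group. Without graft 2555 the number of genes at an unadjusted p under 0.05 was 11 lower and 2 higher (Mrps10 and Mrps27), and 7 of the 13 genes called with all grafts were among them: Mrpl42, Mrpl34, Mrpl14, Mrpl36, Mrpl28, Mrpl12 and Mrpl58. On the other side, non-I/R graft 2554 was the highest of the 5 in 42 members and non-I/R graft 2556 in 11. These grafts, 2555 and 2554, are those with the highest mean of the atrial markers, and the part of that difference in the members' values was not tested.

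Other proteins of the mitochondrial translation system were described from lists of genes. Of 6 measured ribosomal proteins with other symbols or late additions (2 of which are members too), all had a lower mean in I/R, with a median of -0.28, and 1, the member Mrpl58, passed the threshold. Dap3, a GTP-binding small-subunit protein, had -0.36 (unadjusted p = 0.110) and Gadd45gip1, a large-subunit protein, had -0.11 (unadjusted p = 0.114). Of 16 translation factors 2 were lower (12.5%) and 0 higher, with a median of -0.28, where 7.35% of all probe sets were lower and 7.64% higher. Tufm, the elongation factor that brings aminoacyl-tRNA to the ribosome, had 9.87, 9.74 and 9.71 in I/R grafts, against 10.23 and 10.07 in non-I/R grafts (-0.38, SE 0.078, unadjusted p = 0.0097). Mtif2, an initiation factor, had -0.38 (SE 0.12, unadjusted p = 0.039), while Taco1, an activator of the translation of cytochrome oxidase subunit I, had -0.52 and did not pass (unadjusted p = 0.055). With all grafts both lists had a lower median than the 77 members. Without I/R graft 2555 the medians were -0.127 for the other ribosomal proteins and -0.105 for the factors, against -0.106 for the members. No difference between lists was tested. The count of 2 factors was 5 without I/R graft 2553, 4 without I/R graft 2555 and 1 without I/R graft 2557. In these fits 6.77%, 5.76% and 4.78% of all probe sets were lower. The count of factors also fell without non-I/R graft 2554. The median of the factors was -0.10 without graft 2555, and Mrpl58 was called only with all 5 grafts or without graft 2555.

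Of 24 measured factors that assemble the ribosome or modify its rRNA, with a median log2 fold change of -0.065, 2 were lower (8.33%) and 2 higher, shares near the 7.35% lower and 7.64% higher of all probe sets. Nsun4, an rRNA methyltransferase that also takes part in joining the subunits, had -0.29 (unadjusted p = 0.043), and Mettl15, a methyltransferase of the small-subunit rRNA, had -0.30 (unadjusted p = 0.048). Rpusd4, a pseudouridine synthase acting on the large-subunit rRNA, had 0.22 (unadjusted p = 0.026), and the helicase Ddx28 had 0.33 (unadjusted p = 0.039). Of 15 genes for replication, transcription and RNA processing in the mitochondrion, with a median of -0.045, none passed the threshold in either direction with all grafts, and 1 was lower without I/R graft 2555 or without I/R graft 2557. None of the 4 calls among assembly factors was made without non-I/R graft 2554, and without I/R graft 2555 the medians of the assembly list and of this list were 0.0023 and 0.0017. Tfam, which packages mitochondrial DNA and starts its transcription, had -0.17 (unadjusted p = 0.35). Hsd17b10 (-0.49, unadjusted p = 0.066) and Trmt10c (0.73, unadjusted p = 0.071), both subunits of mitochondrial RNase P, had estimates of opposite sign.

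The nuclear regulators of the family split into a falling and a rising set. Ppargc1a, which encodes the coactivator PGC-1α that drives mitochondrial biogenesis, had 9.39, 8.48 and 8.94 in I/R grafts, against 10.63 and 10.35 in non-I/R grafts (-1.55, SE 0.32, unadjusted p = 0.0090). Its relative Ppargc1b fell by 0.75 (SE 0.15) and the nuclear receptor Esrra, with which both act, fell by 0.40 (SE 0.11) on the log2 scale. Pprc1, the third coactivator of the family and one induced by growth signals, had 8.55, 8.96 and 8.65 in I/R grafts, against 7.88 and 8.12 in non-I/R grafts (0.72, SE 0.16). Myc, a growth-promoting transcription factor, had 10.94, 11.39 and 11.25 in I/R grafts, against 9.49 and 10.08 in non-I/R grafts (1.40, SE 0.25). Nrf1 (0.34, SE 0.058) and Gabpb1, the partner subunit of GABP (0.37, SE 0.053), also rose. Gabpa, its DNA-binding subunit (0.080, 95% interval -0.14 to 0.30), and Yy1 (0.011, -0.051 to 0.073) did not pass the threshold. Of the 9 regulators 3 were thus lower and 4 higher at an unadjusted p under 0.05, where 7.35% and 7.64% of all probe sets were. In these 7 regulators the groups did not overlap. Without non-I/R graft 2554, 1 was lower and 3 were higher, and 2 or 3 were lower and 4 higher without any other single graft. Whether any of these transcripts has a part in the members' values was not tested.

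**Figure D3:**
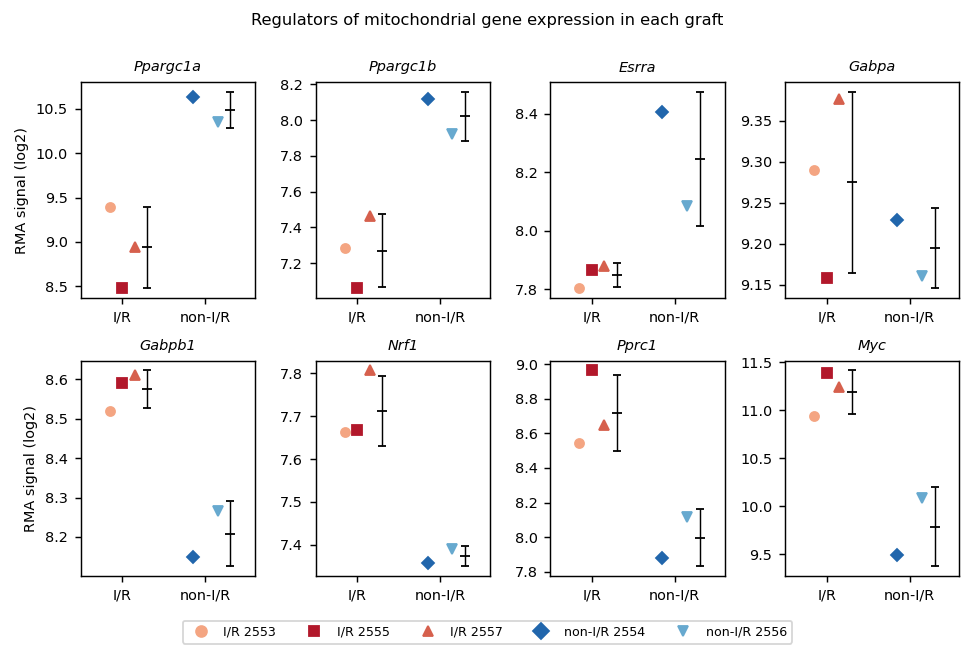
RMA signal (log2, y axis, a separate scale per gene that does not start at 0) of 8 regulators in each of the 3 I/R and 2 non-I/R grafts, with the group mean and SD as bars beside the points. The I/R grafts lie below the non-I/R grafts for Ppargc1a, Ppargc1b and Esrra, above them for Gabpb1, Nrf1, Pprc1 and Myc, and overlap them for Gabpa.

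By median log2 fold change the mitochondrial ribosome lay between respiratory complex I, which feeds electrons into the respiratory chain, and the cytosolic ribosome. The 34 complex I subunit genes had a median log2 fold change of -0.54, and 22 of them (64.7%) were lower at an unadjusted p under 0.05. In all 34 the I/R grafts were all lower than the non-I/R grafts. Of all probe sets 7.35% were lower at that threshold, and in 16.2% all I/R grafts lay below both non-I/R grafts. The 60 cytosolic ribosomal protein genes had a median of 0.10, with 45 higher means, 4 called higher and 0 called lower. Of all probe sets 7.64% were called higher, so the count of 4 did not exceed the share of all. The complex I count was 9 without I/R graft 2553, 2 without non-I/R graft 2554 and 7 without non-I/R graft 2556, and its median stayed between -0.64 and -0.40. The cytosolic count was 13 without I/R graft 2553, 1 without graft 2555 or 2557, and 0 without non-I/R graft 2554. By graft, the mean deviation of the members from each gene's mean over the 5 grafts was 0.036, -0.26 and -0.0093 in I/R grafts 2553, 2555 and 2557, against 0.13 and 0.096 in non-I/R grafts 2554 and 2556. For complex I it was -0.12, -0.47 and -0.060 in the I/R grafts, against 0.42 and 0.24 in the non-I/R grafts. For cytosolic ribosomal proteins it was -0.065, 0.069 and 0.11 in the I/R grafts, against -0.077 and -0.035 in the non-I/R grafts. Graft 2555 was thus the lowest for both mitochondrial lists, and only for complex I were all I/R grafts on the other side of 0 from the non-I/R grafts.

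Markers of 8 cell types or states were set beside the members, at the threshold that called 7.35% of all probe sets lower and 7.64% higher. Of 10 cardiomyocyte markers 9 were lower in I/R (median log2 fold change -0.52), and their mean deviation was -0.29, -0.36 and -0.037 in I/R grafts, against 0.39 and 0.29 in non-I/R grafts. Of 11 neutrophil markers 6 were higher (median 0.86), with a mean deviation of 0.013, 0.63 and 0.33 in I/R grafts, against -0.60 and -0.38 in non-I/R grafts. The part of these markers in the members' values was not tested. The count of cardiomyocyte markers was 4 without non-I/R graft 2554 and 5 without I/R graft 2553 or non-I/R graft 2556, that of neutrophil markers was 1 without graft 2555, 2557 or 2554 and 3 without graft 2556, and both medians kept their sign. Of 7 cell cycle genes 3 were higher (median 0.62), with a mean deviation of 0.87, 0.056 and -0.21 in I/R grafts, against -0.38 and -0.34 in non-I/R grafts, and the median was 0.25 without I/R graft 2553. That count was 0 without non-I/R graft 2554 and 1 without non-I/R graft 2556. Of 8 macrophage markers 1 was higher (median 0.025), of 7 lymphocyte markers 1 was higher, of 6 fibroblast markers 1 was lower (median -0.33), and of 7 endothelial (median 0.13) and 4 atrial markers (median 0.25) none passed. Each of these counts of 1 was 0 in the same direction when one or another single graft was left out.

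**Figure D4:**
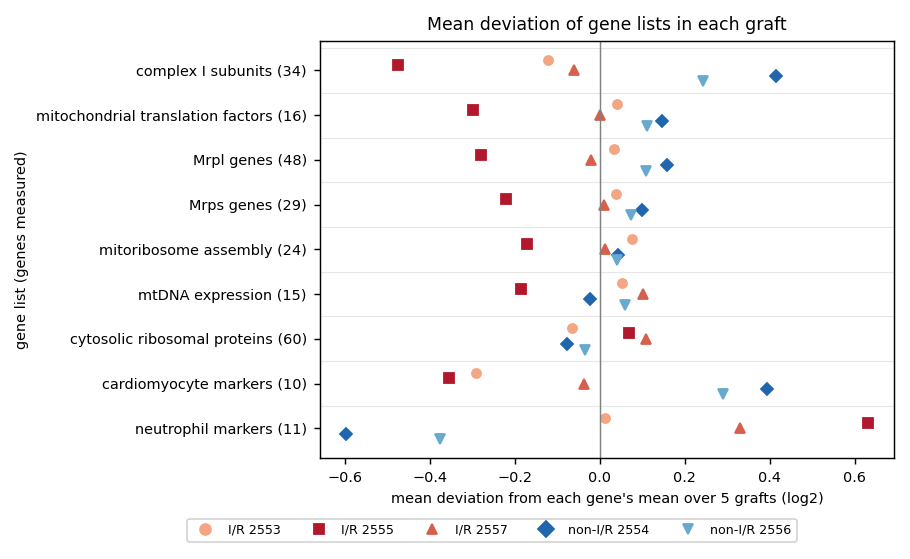
Mean deviation (log2, x axis) of the genes of each list (y axis, number of genes in parentheses) from their means over the 5 grafts, with 1 point per graft (3 I/R, 2 non-I/R). I/R graft 2555 lies at -0.28 for Mrpl and -0.22 for Mrps genes, apart from the other 4 grafts, while for complex I all I/R grafts lie below 0 and both non-I/R grafts above it.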

How the data were processed

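Gene expression was measured with Affymetrix Mouse Gene ST arrays in 3 I/R and 2 non-I/R grafts, grouped by the source label of each sample. The authors deposited a table of log2 values made with RMA, 1 column per graft, and the submitters' notes name Partek and RMA without versions. The genome build of that table is not given in the sources used here. Of 35556 probe sets, 21789 have 1 symbol in the platform annotation, 1621 have several and 12146 are not listed; 21698 gene IDs were found in a RefSeq table of GRCm38.p6, the source of the promoters too. Because RMA equalises the distributions of arrays, a shift of most genes together would not be seen. In 11715 of the 21789 probe sets values were tied between arrays, in 22 of the 77 members but in none of the 13 called ones.

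The log2 values were tested as deposited, with limma 3.58.1 in R 4.3.3 (lmFit, eBayes, prior df 0.824) on the 21789 probe sets, with Benjamini-Hochberg adjustment over all of them. The call rule was an unadjusted p under 0.05, as in the methods, which used ANOVA. The labels do not say that the grafts came from separate animals, so p-values cover only the spread among these 5 arrays. Precision is limited by the number of arrays. The gene lists, the members and the rule for naming genes were chosen with earlier results of these data known. Named members are the 8 largest falls and rises among called genes with separated groups, genes fixed by role, and genes whose probe sets differ in sign; in related lists, the 3 genes with the smallest p and fixed regulators. Other genes were named after their values were seen. The fit was tested on simulated data (statmod 1.5.0 was loaded, and Python 3.11.15 with pandas 2.3.3 and matplotlib 3.10.9 made tables and plots). Alternatives left out grafts or changed the normalization, the test, the filter and the probe set per gene. The microRNA arrays, PCR, histology and protein blots of the study were not analysed here.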

Additional observations from a re-analysis of the deposited data

How the results depend on the processing

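The number of members lower in I/R at an unadjusted p under 0.05, 13 with all grafts, ranged from 3 to 11 when each graft was left out in turn. The number higher ranged from 0 to 2, and the number with a higher mean from 6 to 22 (10 with all grafts). The median log2 fold change ranged from -0.21 to -0.11 over all members, from -0.27 to -0.11 for Mrpl and from -0.15 to -0.083 for Mrps genes. Where a non-I/R graft was left out, the other was assumed to vary like the I/R grafts. With grafts 2554 and 2555 left out together, 8 members were lower, 2 were higher and 29 had a higher mean, the Mrpl median was -0.056, and only 2 of the 13 calls were among those made. The lower count was 6 by the methods' ANOVA and 21 after cyclic loess. Every other setting gave 11 to 19 lower, and no setting gave a member an adjusted p under 0.05.

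Among the members named by the rule given above, 6 that had not passed the threshold changed sign under some setting. Members named after their values were seen were not counted. One of those, Mrps27, had -0.034 with all grafts and 0.12 without I/R graft 2555. With grafts 2554 and 2555 left out, the log2 fold change was 0.0080 for Mrpl11, 0.0053 for Mrpl3, 0.038 for Mrpl32 and -0.068 for Mrps12. Without I/R graft 2555 it was -0.068 for Mrps12 and 0.094 for Mrpl32, and without non-I/R graft 2556 it was 0.030 for Mrpl32. For Mrps12 it was -0.021 with array weights, -0.0084 with centred arrays, -0.0076 after quantile normalization and -0.0058 after cyclic loess, and for Mrpl32 it was 0.013 with array weights. Mrps30 had -0.0077, -0.0051 and -0.027 without grafts 2553, 2557 and 2554, where Mrpl47 had -0.11, -0.026 and -0.016, and Mrpl47 had -0.022 as the mean of its probe sets. The highest values with a graft left out were 0.046 for Mrps12, 0.21 for Mrps30 and 0.28 for Mrpl47. The cause was not tested. Leaving out members with probe sets among another chromosome was chosen after seeing the data. No paired analysis was possible because the labels give no replicate numbers, and those given here in sample order only name the grafts.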
